A study of Homo sapiens with 6 samples.

Results

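Oxidative phosphorylation (OXPHOS) is carried out by 5 protein complexes of the inner mitochondrial membrane. Complex I takes electrons from NADH and complex II from succinate, complex III passes them to cytochrome c, complex IV hands them to oxygen, and complex V, the ATP synthase, uses the proton gradient that complexes I, III and IV build. Complex II is built from nuclear genes only, whereas the other complexes combine nuclear subunits with subunits encoded in mitochondrial DNA. Some nuclear subunits of complex IV exist as paired genes, a common form and a form largely restricted to muscle, lung, testis or hypoxic cells.

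The genes described here are the protein-coding genes of the deposited table whose symbols begin with NDUFA, NDUFB, NDUFC, NDUFS, NDUFV, UQCR, COX4 to COX8 or ATP5, together with SDHA to SDHD and CYC1. The rule found 100 genes among 58676 listed genes. They comprise 40 subunit genes of complex I and 8 NDUFAF genes, which encode assembly factors of complex I and are treated apart, 4 genes of complex II, 10 of complex III, 17 of complex IV and 21 of complex V. The rule takes symbols literally, so it also takes the ATP synthase inhibitor ATP5IF1, the read-through genes NDUFC2-KCTD14 and ATP5MF-PTCD1, and NDUFA4, which is now regarded as a complex IV subunit but is counted here by its symbol.

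RNA was sequenced from A549 cells, an established human lung adenocarcinoma line, in 3 libraries of A549 Rec, which carried the cDNA of recoverin, a calcium sensor of the retina, and 3 libraries of A549 MOCK, which carried the empty vector. By the study's methods both lines were made by retroviral transduction with a puromycin-selectable vector, and all cells grew in high-glucose medium with methylcellulose. The RNA came from confluent flat cultures, not from the spheroids that the study also grew. Culture lasted 6 days by the labels, and collection fell on day 7 by the methods. Whether each line was a clone or a pool was not stated, and nothing says that the 3 libraries of a group came from separate transductions, so the p-values measure the spread between these libraries only. The comparison addresses whether the genes of the respiratory chain differ in RNA level between the lines, in a study that also measured respiration and glycolysis.

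The values are in TPM, a unit in which reads per gene length are scaled to a total of 1000000 transcripts in each library. RCVRN was listed at 0 in the 3 A549 MOCK libraries and lay between 322 and 339 TPM in the A549 Rec libraries, the groups that the labels give. KRT8 and KRT18 were high in every library, the 5 epithelial markers summing to between 4193 and 6343 TPM, although EPCAM stayed at or below 2.98 TPM and KRT19 at or below 0.32 TPM. The 5 alveolar type II markers summed to at most 4.53 TPM, almost wholly NAPSA, with SFTPA1 at 0 in all libraries. The leukocyte, endothelial and striated muscle lists summed to at most 1.49, 0.912 and 0.148 TPM, and the fibroblast list to at most 5.14 TPM, nearly all of it COL1A1, with COL1A2 listed at 0. The libraries numbered 3 stood apart in both groups. Mitochondrially encoded genes took 34.5% of the TPM in A549 MOCK replicate 3 and 26.9% in A549 Rec replicate 3, against 13.3% to 17.3% in the other 4 libraries.

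Of the 100 genes, 95 were above 0 in at least 1 library and 92 in all 6. Of all 100, 39 had a mean of at least 100 TPM over the 6 libraries, 41 lay from 10 to 100, 10 from 1 to 10 and 10 below 1. The 90 genes that reached 1 TPM in at least 3 libraries were tested, and among them the median level was 85.5 TPM, beside 12.8 TPM for all 17408 tested genes. A total of 30 of the 100 were among the 1000 genes with the highest mean TPM. Since the filter asks only for a level, the 10 genes that missed it are low in both groups.

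Within complex I the accessory subunits NDUFS5 and NDUFB10 were the highest. NDUFS5 had 705, 694 and 419 TPM in A549 MOCK and 653, 693 and 494 TPM in A549 Rec. NDUFB10 followed with a mean of 388 TPM over the 6 libraries. The core subunits, which carry the flavin and iron-sulphur centres or the quinone site, spread widely. NDUFV1, which binds NADH and the flavin, had a mean of 165 TPM, NDUFS8 of 90.5 TPM, NDUFS3 of 55.5 TPM, NDUFS1 of 35.9 TPM and NDUFS7 of 22.1 TPM. NDUFV2, the partner of NDUFV1 in the NADH-binding arm, had only 1.83 TPM. The assembly factors were lower as a group, with a median of 25.9 TPM over 8 genes, from NDUFAF6 at 3.76 TPM to NDUFAF8 at 97.9 TPM, beside 57.8 TPM over the 36 tested subunits of complex I.

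The 4 genes of complex II lay closest together, within a 3.46-fold range. SDHB, the iron-sulphur subunit, had a mean of 102.8 TPM, the flavoprotein SDHA 55.3 TPM, and the membrane anchors SDHD and SDHC 54.5 and 29.7 TPM. In complex III the order was led by CYC1, the haem protein cytochrome c1, with a mean of 446 TPM, followed by the Rieske iron-sulphur protein UQCRFS1 with 333 TPM. The core proteins UQCRC1 and UQCRC2 had 196 and 149 TPM. CYC1 measured 530, 477 and 322 TPM in A549 MOCK and 482, 514 and 352 TPM in A549 Rec, with the third library lowest in both groups.

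In complex IV the small subunits COX6B1 and COX8A had means of 829 and 791 TPM, ahead of COX5A with 428 TPM, COX5B with 210.3 TPM and COX4I1 with 201 TPM. COX6B1 measured 954, 919 and 521 TPM in A549 MOCK and 919, 980 and 682 TPM in A549 Rec. Complex V held the highest value of all 100 genes. ATP5F1B, the catalytic beta subunit, had 2215, 2185 and 1423 TPM in A549 MOCK and 2134, 2278 and 1844 TPM in A549 Rec, and ranked at 38 among all listed genes. Next in complex V were ATP5F1C, the gamma subunit of the central stalk, with 259 TPM, and ATP5MD, a small membrane subunit, with 246 TPM, whereas the alpha subunit ATP5F1A, which stands with beta at equal number in the enzyme, had 136 TPM. ATP5S and ATP5MF-PTCD1, both placed in complex V by symbol only, were lowest of the tested genes grouped there, at 4.03 and 3.86 TPM.

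**Figure D1:**
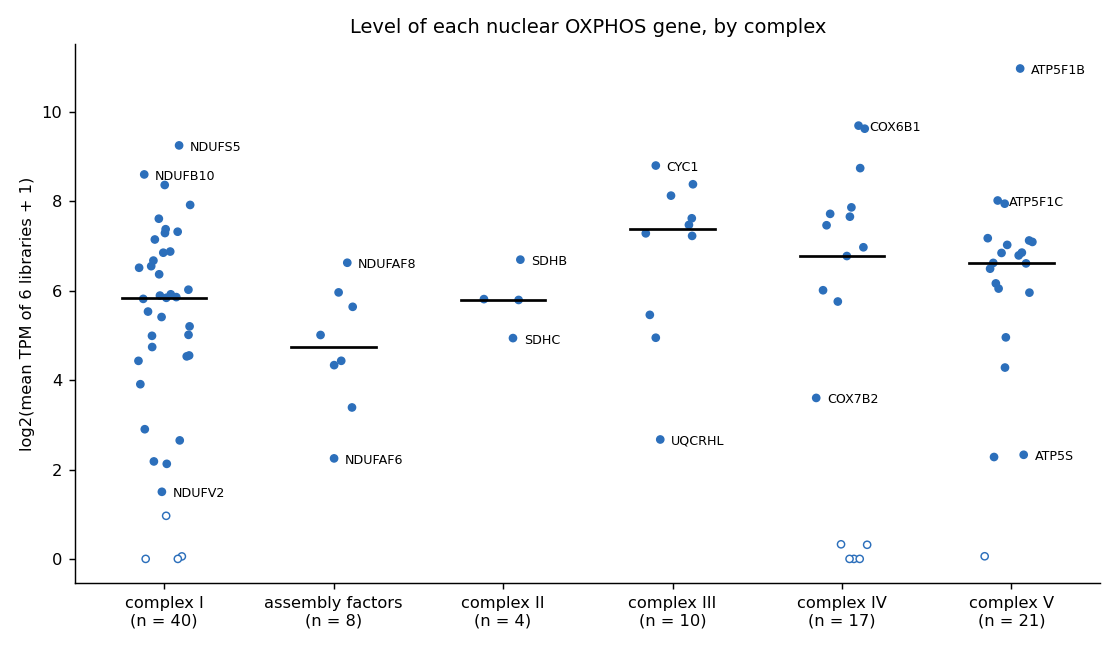
Mean level of each of the 100 genes over the 6 libraries, as log2(TPM + 1), by complex. Filled points are the 90 tested genes, open points the 10 that missed the filter, and lines the median of all genes of the group. Complex III has the highest median over all genes of a group, whereas among the tested genes complex IV does (189 against 166 TPM). Complex V has the highest single gene, ATP5F1B. Open points near 0 occur in complexes I, IV and V.

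Part of this order depends on the gene length behind the TPM. The deposited values fit gene models longer than the main transcript in most tested genes, the exceptions being UQCRQ and NDUFB7, with a median ratio of 2.28 between the length recovered from the values and the canonical GENCODE v44 transcript over the 90 tested genes, at least 5 in 14 of them and up to 10.8 in SDHC. Dividing the recovered reads by the canonical length, an alternative chosen after the data were seen, put SDHC first in complex II, at 106 reads per kilobase per 1000000 reads against 81.6 for SDHB, where it was last by TPM. It moved COX4I1 from rank 6 to rank 2 in complex IV, ATP5MC2 from rank 5 to rank 2 in complex V and NDUFS8 from rank 14 to rank 4 in complex I. The reads belong to the longer gene models, so this alternative can overstate genes with a large length ratio. SDHC also has 1 copy of at least 99% identity elsewhere in the genome. ATP5F1B, COX6B1, CYC1, NDUFS5 and NDUFAF8 were first in their groups by either length. Ratios between the libraries for 1 gene do not depend on this length.

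Several subunits that the enzyme is known to need were listed at or near 0. NDUFA6 was listed at 0 in all libraries, NDUFA3 had a mean of 0.0393 TPM, and NDUFA7 had 0.951 TPM. Of the 9 complex I genes with a mean under 10 TPM, 5 share over 50% of the exons of their canonical transcript with another listed gene on the same strand, namely NDUFV2 (89.965%), NDUFA13 (83.9%), NDUFA7 (77.9%), NDUFA11 (68.2%) and the read-through gene NDUFC2-KCTD14 (100%). The genes that share these exons with NDUFV2 and NDUFA11 were themselves at 0 in all libraries, and those sharing with NDUFA7 and NDUFA13 had means of 0.0575 and 0.784 TPM. NDUFA3 and NDUFA6 share no such exons, but their canonical transcripts have 9 and 3 copies of at least 99% identity on alternate-haplotype sequences of GRCh38. Over all 100 genes, the 8 with more than 50% sharing had a median of 3.70 TPM and a highest value of 22.5 TPM (NDUFB8), whereas the 78 with under 1% sharing and no alternate-haplotype copy had a median of 91.7 TPM. How the counting treated reads that fall in more than one gene or place was not stated, and its part in these low values was not tested. The levels of NDUFV2, NDUFA3, NDUFA6, NDUFA7, NDUFA11 and NDUFA13 are therefore uncertain. So are those of NDUFB8 (72.0% shared) and of ATP5PO in complex V (63.8% shared, 18.5 TPM), whose sharing genes were also at 0. A set of 13 members, among them SDHA, SDHC, SDHD, UQCRH, COX6A1, COX7A2 and NDUFV2, have a further copy of at least 95% identity elsewhere in the genome, and their levels may share reads with it.

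The paired isoforms were strongly one-sided in these cells. COX4I2, the lung and hypoxia form of subunit 4, and COX6A2, the heart and skeletal muscle form of subunit 6a, were listed at 0 in all 6 libraries, while COX4I1 and COX6A1 had means of 201 and 176 TPM. COX8C, the testis form of subunit 8, was also listed at 0, but its transcript has 1 copy of at least 99% identity on an alternate haplotype. COX6B2, the testis form of COX6B1, had a mean of 0.245 TPM from 29 reads over the 6 libraries, and COX7A1, the muscle form of COX7A2, had 0.254 TPM from 8 reads, where COX7A2 had 125 TPM.

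COX7B2 was the exception among the restricted forms of complex IV. This testis-type partner of COX7B had 14.5, 14.1 and 9.49 TPM in A549 MOCK and 7.19, 11.0 and 10.6 TPM in A549 Rec. These values rest on 29 to 59 recovered reads a library. Its share of the COX7B and COX7B2 sum was 10.4% ± 1.03 (SD, n = 3) in A549 MOCK and 8.04% ± 1.52 (SD, n = 3) in A549 Rec. The shares of the groups narrowly failed to overlap, with 9.36% the lowest in A549 MOCK and 9.28% the highest in A549 Rec. In the other isoform pairs with reads for both genes the shares overlapped between the groups. The share of COX7B2 was not tested. The TPM of COX7B2 itself overlapped between the groups. Its log2 difference was -0.37 (95% confidence interval -0.87 to 0.13) and did not pass the test, with an unadjusted limma p of 0.124 and an exact two-sided permutation p of 0.3. With single libraries left out, the difference ranged from -0.55 (without A549 MOCK replicate 3) to -0.19 (without A549 Rec replicate 1).

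NDUFA4L2, the hypoxia-inducible relative of NDUFA4, was low, with a mean of 3.37 TPM against 81.7 TPM for NDUFA4. UQCRHL had 5.38 TPM against 279 TPM for UQCRH, but the transcripts of both are at least 95% identical to another place in the genome, and their reads cannot be firmly separated. The 3 genes ATP5MC1, ATP5MC2 and ATP5MC3 encode the same mature subunit c of the ATP synthase ring and were of similar level by TPM. They gave 37.8% ± 0.891, 36.6% ± 0.789 and 25.6% ± 0.768 (SD, n = 6) of their summed TPM, with ranges over the libraries of 37.0% to 39.3%, 35.5% to 37.5% and 24.3% to 26.4%, while the TPM of each was lowest in A549 MOCK replicate 3. This likeness depends on gene length, since by canonical length the same genes gave 33.9%, 51.1% and 14.9% of their sum.

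**Figure D2:**
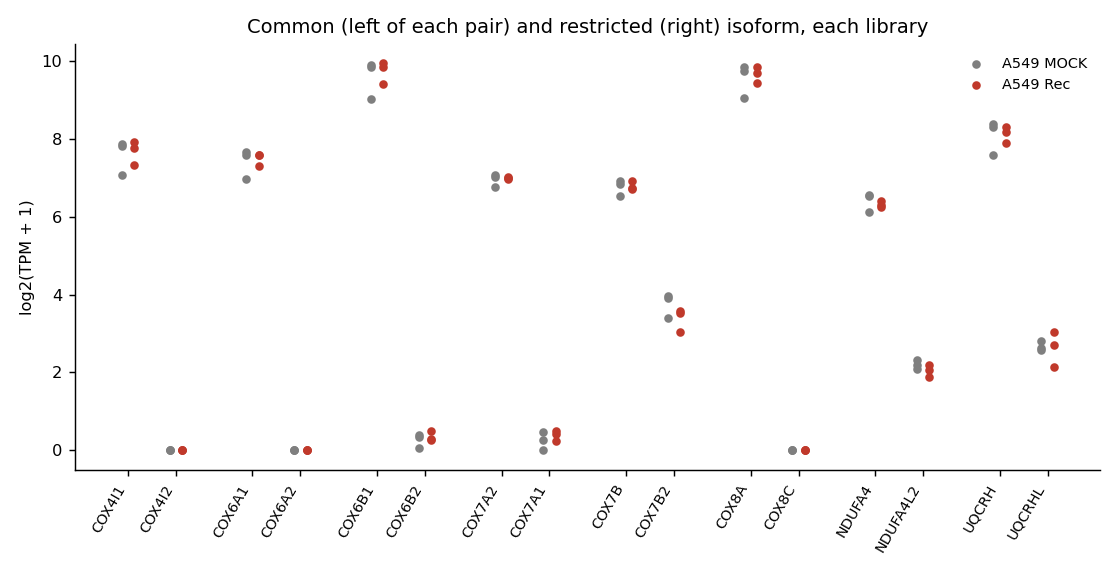
Level of the common gene (left) and its restricted or lower partner (right) for 8 isoform pairs in each library, as log2(TPM + 1), with A549 MOCK in grey and A549 Rec in red. COX4I2, COX6A2 and COX8C lie at 0 in all libraries, COX6B2 and COX7A1 just above it, and COX7B2 stands clear of 0 at 7.19 to 14.5 TPM.

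No gene of the respiratory chain passed the test between the lines. With both an adjusted p under 0.05 and a 2-fold or larger change required, 0 of 90 tested members were called by limma, beside 1 gene (0.00574%) of all 17408 tested, which was RCVRN. At an unadjusted p under 0.05, 1 of 90 members was below the threshold, beside 359 genes (2.06%) of all tested. That member was lower in A549 Rec, as were 181 genes (1.04%) of all tested. The replicate numbers were taken to pair the libraries, which was not established. A fit that blocked on them gave 715 genes (4.11%) over all tested, while among the members it gave 1 again, the same gene.

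That gene was NDUFV2, the low-listed core subunit described above. It had 1.98, 2.25 and 2.89 TPM in A549 MOCK and 1.11, 1.58 and 1.19 TPM in A549 Rec, and the groups did not overlap. These values rest on 27, 30 and 44 recovered reads in the A549 MOCK libraries and 15, 25 and 17 in those of A549 Rec. The log2 difference on the TPM + 1 scale was -0.55 (SE 0.20, 95% confidence interval -1.02 to -0.09), with an unadjusted limma p of 0.0254 and an adjusted p of 0.9997. The exact two-sided permutation test gave p = 0.1, the smallest that 3 against 3 libraries allow. With single libraries left out, the log2 difference ranged from -0.64 to -0.45. The limma p stayed under 0.05 without A549 MOCK replicate 1 (0.0293) and without A549 Rec replicate 2 (0.0308). It did not without A549 MOCK replicate 2 (0.0544) or 3 (0.0783), without A549 Rec replicate 1 (0.0766) or 3 (0.0640), or without both libraries numbered 3 (0.133, log2 difference -0.42). Among the 90 tested members, the groups failed to overlap in this 1 gene, lower in A549 Rec, and in 0 genes higher in A549 Rec, beside 2.69% and 2.47% of all tested genes. NDUFA7, which missed the filter, also had groups without overlap, at 0.843, 1.01 and 1.89 TPM in the A549 MOCK libraries against 0.567, 0.727 and 0.672 TPM in those of A549 Rec, from 4 to 15 reads a library.

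The intervals bound what these libraries could have missed. For 88 of 90 members the 95% confidence interval of the difference lay inside a 2-fold change in either direction, beside 88.5% of all tested genes. The exceptions were NDUFV2 and NDUFC1, an accessory subunit of complex I. NDUFC1 had the largest positive difference, 0.31 (95% confidence interval -0.58 to 1.19). It measured 66.4, 64.1 and 25.7 TPM in A549 MOCK and 68.4, 70.3 and 43.7 TPM in A549 Rec, A549 Rec being higher within each replicate number and most of all in the libraries numbered 3. The median standard error over the members was 0.21 on the log2 scale, and smaller changes than the intervals allow were not detectable with 3 libraries a group.

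**Figure D3:**
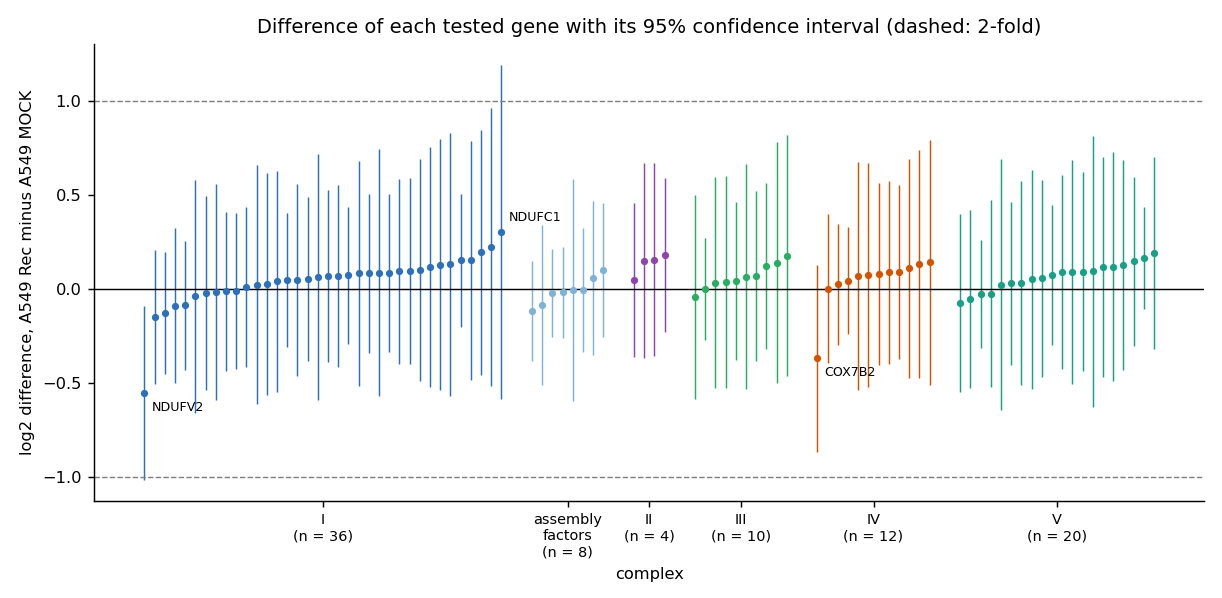
A549 Rec minus A549 MOCK, on the log2 scale (TPM + 1), for each tested gene, ordered within its complex, with its 95% confidence interval from limma. Dashed lines mark a 2-fold change. The intervals of all genes but NDUFV2 include 0, and those of NDUFV2 and NDUFC1 cross a dashed line.

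By complex, the differences were small and centred slightly above 0. In complex I, 26 of 36 tested subunits had a positive log2 difference, and the median was 0.07. Of the 8 assembly factors, 2 were positive, with a median of -0.01, from NDUFAF4 at -0.12 to NDUFAF2 at 0.10. All 4 genes of complex II had a positive difference, with a median of 0.15, from SDHC at 0.05 to SDHD at 0.18. In complex III 8 of 10 were positive with a median of 0.05, in complex IV 11 of 12 with a median of 0.08, and in complex V 16 of 20 with a median of 0.08. Over all tested genes 56.6% were positive and the median was 0.02. None of these per-gene values passed the test, and a direction was given here as a description.

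The largest positive differences of complexes II to V had intervals that included 0. In complex II SDHD measured 59.3, 55.4 and 39.3 TPM in A549 MOCK and 59.5, 62.3 and 51.4 TPM in A549 Rec (log2 difference 0.18, 95% confidence interval -0.23 to 0.59). In complex III UQCR10, a small subunit, had 0.18 (-0.46 to 0.82), in complex IV COX6B1 had 0.14 (-0.51 to 0.80), and in complex V ATP5ME, a membrane subunit, had 0.19 (-0.32 to 0.70). NDUFV2 aside, the nuclear catalytic and redox subunits of complexes I, II, III and V were as close. ATP5F1B differed by 0.13 (-0.43 to 0.69), CYC1 by 0.03 (-0.53 to 0.59), NDUFS1 by 0.07 (-0.39 to 0.53) and SDHA by 0.15 (-0.37 to 0.67). In complex IV the subunit COX4I1, which is not a redox subunit, differed by 0.07 (-0.52 to 0.67).

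The 100 genes summed to 14939, 14579 and 9143 TPM in the A549 MOCK libraries and to 14069, 15055 and 11225 TPM in the A549 Rec libraries. The groups overlapped, and the libraries numbered 3 were the lowest in each. Per complex, the log2 ratio of the group means of the summed TPM was 0.05 for complex I, 0.13 for complex II, 0.05 for complex III, 0.08 for complex IV and 0.07 for complex V, and -0.02 for the assembly factors. For complex I the summed level was 3585 ± 919 TPM (SD, n = 3) in A549 MOCK and 3707 ± 622 TPM in A549 Rec, and for complex V it was 3847 ± 937 and 4038 ± 509 TPM. In each complex the group means lay closer together than 1 SD of A549 MOCK or of A549 Rec, SDs that include the drop in the libraries numbered 3.

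**Figure D4:**
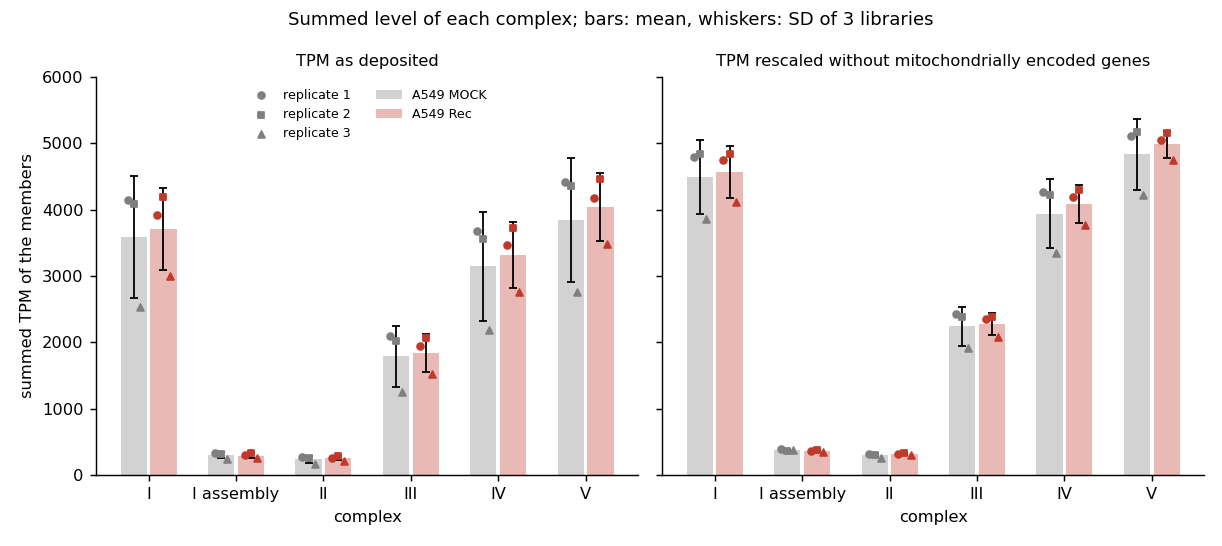
Summed TPM of the members of each complex in each library, as deposited (left) and rescaled to 1000000 without the mitochondrially encoded genes (right). Bars are group means, whiskers the SD of 3 libraries, and point shapes the replicate numbers. Replicate 3, shown by triangles, is the lowest library of each group in complexes I to V on both scales.

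The libraries numbered 3 carried most of the spread among the members. In A549 MOCK replicate 3 was the lowest library for 83 of 90 tested members, with a median log2 difference of -0.63 from the mean of replicates 1 and 2, whereas over all tested genes it was lowest in 64.8% with a median of -0.24. In A549 Rec it was the lowest for 80 of 90 members with a median of -0.35, beside 61.9% and -0.15 over all tested genes. The 13 mitochondrially encoded subunits went the other way. They summed to 114465, 132193 and 285714 TPM in the A549 MOCK libraries, which was 7.66, 9.07 and 31.3 times the sum of the nuclear genes. In the A549 Rec libraries they summed to 147102, 113032 and 219459 TPM, or 10.5, 7.51 and 19.6 times the nuclear sum.

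TPM is a share, so a larger mitochondrial share lowers all other values. After rescaling to 1000000 without the mitochondrially encoded genes, replicate 3 was still the lowest library for 70 of 90 members in A549 MOCK, with a median of -0.25, and for 61 of 90 in A549 Rec, with a median of -0.14. Over all tested genes outside the mitochondrial genome it was then lowest in 30.8% and 32.2%, with medians of 0.10 and 0.04. Complexes I to V were alike in this, with rescaled medians between -0.22 and -0.29 in A549 MOCK and between -0.07 and -0.16 in A549 Rec. The assembly factors were nearer 0, with medians of -0.00085 and 0.06 and replicate 3 lowest in 3 of 8 in each group. What set the libraries numbered 3 apart was not tested.

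The replicate numbers gave different directions for the same comparison. Between the libraries numbered 1, A549 Rec was the higher in 15 of 90 members, with a median log2 difference of -0.09. Between those numbered 2 it was higher in 54 of 90, with a median of 0.03, and between those numbered 3 in 82 of 90, with a median of 0.25. Over all tested genes A549 Rec was higher in 38.0%, 56.8% and 62.8%. On the rescaled values the counts were 36, 41 and 67 of 90, with medians of -0.02, -0.01 and 0.09, beside 52.1%, 47.2% and 39.6% of all tested genes. Complex II was the exception on the rescaled values, its summed level being higher in A549 Rec within each replicate number. The log2 differences were 0.03, 0.11 and 0.18, although as deposited the first of these was -0.03. The groups still overlapped, since the rescaled sums were 308, 306 and 259 TPM in A549 MOCK. In A549 Rec they were 315, 329 and 293 TPM. SDHA and SDHD were higher within each number on both scales. This was not particular to complex II, since NDUFB10, NDUFC1 and NDUFS7 of complex I and ATP5IF1 of complex V were so too. On the rescaled values 3 of 4 tested genes of complex II were higher within each number. The counts were 5 of 36 in complex I, 1 of 10 in complex III, 2 of 12 in complex IV and 4 of 20 in complex V. The share of all tested genes that were higher within each number was not computed, so these counts are a description only. In the rescaled fit that blocked on the replicate number, 5 of 90 members (5.56%) had an unadjusted p under 0.05, beside 5.03% of all tested genes. These were NDUFS6 (log2 difference 0.18), NDUFAF4 (-0.16), NDUFA8 (0.15), NDUFV2 (-0.64) and SDHD (0.14). Their unadjusted p-values by limma lay between 0.0240 and 0.0489, and the adjusted p of each was 0.927.

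**Figure D5:**
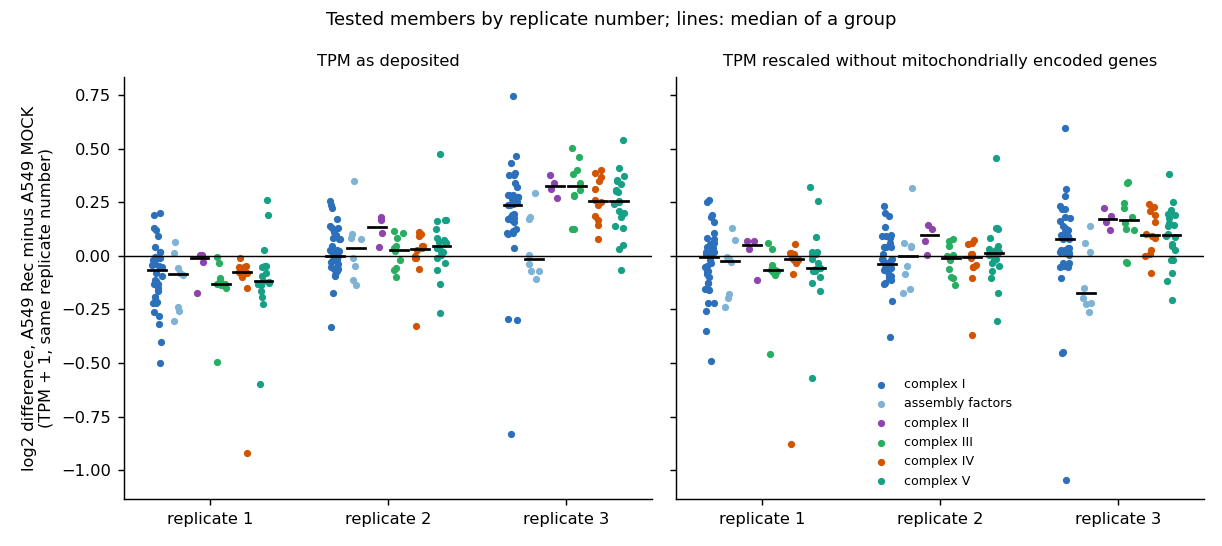
A549 Rec minus A549 MOCK, on the log2 scale (TPM + 1), for each tested member within libraries of the same replicate number, as deposited (left) and rescaled (right). Colours are complexes, with complex I to complex V and the assembly factors from left to right as in the legend, and black lines are medians. The points lie mostly below 0 for replicate 1 and above 0 for replicate 3 as deposited.

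Leaving out both libraries numbered 3 turned the median of complex I from 0.07 to -0.01, of complex III from 0.05 to -0.05, of complex IV from 0.08 to -0.02 and of complex V from 0.08 to -0.03, while complex II went from 0.15 to 0.07. With the remaining 4 libraries 5 of 90 members (5.56%) had an unadjusted p under 0.05, beside 5.67% of all tested genes in either direction. All 5 were lower in A549 Rec, but the share of all tested genes was not split by direction here. These were COX7B2 (log2 difference -0.62), ATP5MD (-0.20), NDUFA4 (-0.19), NDUFB9 (-0.19) and ATP5MF (-0.18), and their adjusted p-values by limma were 0.763 or higher. Without A549 MOCK replicate 3 alone, the medians of complexes I to V lay between -0.16 and -0.07, and the same setting gave 3 members with an unadjusted p under 0.05, namely COX7B2, ATP5MD and NDUFA4 (3.33%, beside 3.71% of all tested genes). Without A549 Rec replicate 2, the medians of complexes I, III and V were also below 0, at -0.02, -0.01 and -0.01.

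Genes that build or serve the complexes moved as little. Of the 13 mitochondrially encoded subunits, 0 had an unadjusted p under 0.05 by limma, and 2 had a positive log2 difference (MT-ND4L and MT-ND3), the median being -0.10. Assembly factors outside the symbol rule were measured for complex I (8 of 8 tested), complex II (4 of 4), complex III (6 of 6), complex IV (16 of 17) and complex V (3 of 3), and 0 of these had an unadjusted p under 0.05 in either direction. Their median differences were 0.04, 0.09, 0.06, 0.11 and 0.05. CYCS, the electron carrier cytochrome c, had 249, 232 and 162 TPM in A549 MOCK and 221, 236 and 196 TPM in A549 Rec. The 11 regulators of these genes, among them NRF1, GABPA, TFAM and PPARGC1A, had a median difference of -0.04, and 0 of 11 had an unadjusted p under 0.05.

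Promoters of many nuclear OXPHOS genes are known to hold sites for NRF1, for ETS-family factors such as GABP, and for YY1. The promoter sequences were taken from RefSeq on GRCh38.p14, where 80 of the 100 genes were matched by gene ID, and the window ran from 250 bases before the start to 30 bases after it. The letters searched were GCGCATGC for NRF1, CCGGAAGT for ETS factors and AAGATGGCG for YY1, each with its reverse complement. The NRF1 letters on the 2 strands overlap where both are present. At least 1 of the 3 motifs was present in 26 of 80 members (32.5%), beside 15.7% of the promoters of 10807 tested genes and 8.43% of all 27305 promoters in the table. NRF1 letters were in 15 members (18.8%), beside 5.37% of the promoters of tested genes and 3.19% of all promoters. ETS letters were in 10 members (12.5%), beside 8.56% and 4.34%, and YY1 letters in 6 (7.50%), beside 3.04% and 1.48%.

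One stretch per complex is printed to show how these letters lie in the promoters of members. Each is from the member of its complex with the most kinds of motif, the shortest stretch being taken where several had as many and then the higher level, and runs from 15 bases before the first motif to 15 bases after the last, or to the end of the window. Capitals mark the motifs, and each stretch reads in the direction of its gene.
NDUFS7 (complex I, chr19:1383819-1383936, plus strand, NRF1 then YY1): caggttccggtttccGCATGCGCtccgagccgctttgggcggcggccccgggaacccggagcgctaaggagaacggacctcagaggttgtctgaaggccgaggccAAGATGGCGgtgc
SDHD (complex II, chr11:112086748-112086817, plus strand, NRF1 on both strands, then ETS): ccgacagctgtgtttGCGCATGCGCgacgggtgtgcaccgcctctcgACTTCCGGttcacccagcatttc
UQCRH (complex III, chr1:46303636-46303673, plus strand, ETS): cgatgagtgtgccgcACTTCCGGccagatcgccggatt
COX5B (complex IV, chr2:97645911-97646079, plus strand, NRF1, then ETS at 2 places): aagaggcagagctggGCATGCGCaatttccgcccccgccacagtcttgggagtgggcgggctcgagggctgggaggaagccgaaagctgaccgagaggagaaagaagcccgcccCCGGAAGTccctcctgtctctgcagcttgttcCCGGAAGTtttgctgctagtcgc
ATP5PF (complex V, chr21:25735088-25735189, minus strand, NRF1 then YY1): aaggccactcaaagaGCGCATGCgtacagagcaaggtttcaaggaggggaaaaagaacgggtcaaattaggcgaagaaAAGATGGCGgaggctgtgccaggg

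The motifs were spread over the complexes, in 10 of 35 matched promoters of complex I, 2 of 3 of complex II, 3 of 7 of complex III, 3 of 14 of complex IV and 6 of 14 of complex V, and in 2 of 7 assembly factors. Members with and without the letters were both low in the libraries numbered 3. In A549 MOCK replicate 3 was the lowest library for 22 of 24 tested members with a motif and for 45 of 49 without, with median log2 differences of -0.66 and -0.60 from the mean of the other libraries of the group. In A549 Rec it was the lowest for 21 of 24 and 45 of 49. No binding at these letters was measured.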

How the data were processed

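Gene expression was measured by RNA-seq in 3 A549 MOCK and 3 A549 Rec libraries. The authors deposited 1 table of TPM values per gene and library. Per the labels, reads were trimmed with Trimmomatic 0.38, checked with FastQC 0.11.7, aligned with HISAT2 2.1.0 and counted with featureCounts 1.6.3. The labels name a mouse build, whereas the study's methods and the table's human gene IDs and coordinates give GRCh38, which was used. The annotation release, the strand setting and the handling of multi-mapped reads were not given in the sources used here. The methods name more than 1 sequencer model, and which library ran on which was not given.

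TPM was tested as log2(TPM + 1), after a filter of at least 1 TPM in at least 3 of 6 libraries, with limma 3.58.1 (moderated, with trend) in R 4.3.3 over all 17408 genes and Benjamini-Hochberg adjustment. A fold change on this scale understates that of low genes. Calls needed an adjusted p under 0.05 and a 2-fold change. Reads were recovered from the TPM that 1 read is worth in each gene and library, within 0.01 of a read, and gave 15186421 to 18575785 reads per library. These reads are estimates. The fit and the recovery were tested on simulated data. The labels' replicate numbers were taken to pair the libraries, an assumption that the labels do not state. A549 MOCK and A549 Rec libraries with a shared number deviated together from the means of their groups. The correlations over the tested genes were 0.115, 0.164 and 0.342, each over 0.1. Libraries with different numbers were not compared in this way, so these values cannot show that the numbers pair the libraries. The share of exons was taken from GENCODE v44 and copies of canonical transcripts were found with minimap2 2.31.

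The genes and lists were chosen with earlier results of these data known. Named genes were drawn, per complex, from the 2 highest and 2 lowest tested genes by level, the largest difference in each direction, core subunits, isoform pairs and each gene with an unadjusted p under 0.05. Other low-listed or exon-sharing genes, genes whose rank moved with length, ATP5MD and ATP5IF1 were named after their values were seen. So were genes under that p in an alternative. Promoter stretches were named by the rule given with them. Alternatives were another pseudocount, no filter, quantile normalization, rescaling without mitochondrially encoded genes, limma without trend, the replicate block and leaving out libraries.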

Additional observations from a re-analysis of the deposited data

How the results depend on the processing

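No member was called in the analysis as reported or in any of the 15 alternatives, and of the 50 named genes with a test, 0 had an adjusted p under 0.05 in any. The count of genes called among all tested was 1 as reported, 6 without the filter on low TPM, 6 in limma without trend, 2 without both libraries numbered 3 (also after rescaling, an alternative chosen after seeing the data), and 1 to 2 when single libraries were left out. The count of members with an unadjusted p under 0.05 was 1 as reported and 5 in the rescaled fit with the replicate block (5.56%, beside 5.03% of all tested genes). It was 5 without both libraries numbered 3, 8 when those were left out of the rescaled values (8.89%, beside 6.34%), and 0 to 3 when single libraries were left out. With the replicate block alone, that is, pairing by replicate number, it was 1, and the block changed no other call. The medians by complex and the ratios of summed TPM moved by less than the SD between libraries in each alternative, but in complexes I to V their signs turned without A549 MOCK replicate 3 and, save in complex II, without both libraries numbered 3. Over single libraries left out, the median of all members ranged from -0.14 to 0.19. The sign of 36 of 50 named genes turned without A549 MOCK replicate 3, of 21 without both libraries numbered 3, of 8 after rescaling and of 0 under the other pseudocount. The cause was not tested. Low counts limit NDUFV2, which had 15 to 44 reads a library.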
